A study of Mus musculus with 17 samples.

Results

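The collagen and laminin genes of mouse pancreatic islets were followed across 5 genotype groups measured on 17 Affymetrix whole-transcript arrays. A gene was a member when a probe set named it alone and its symbol was Col, a number, a and a number, or Lama, Lamb or Lamc with a number, and each gene was read from its probe set with the highest mean. This gave 54 members of 19938 genes tested, of which 44 were collagens and 10 were laminins. By structure they comprised 11 fibrillar collagens, 9 FACIT collagens, 6 chains of collagen IV, 6 of collagen VI, 2 multiplexins, 3 short-chain collagens, 4 transmembrane collagens, 3 other collagens, 5 laminin alpha chains, 3 beta chains and 2 gamma chains.

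Collagens are trimers wound from alpha chains. Fibrillar collagens build the stiff fibres of connective tissue, whereas collagen IV and the laminins, each laminin being one alpha, one beta and one gamma chain, form the sheets of basement membranes. In islets most of the basement membrane surrounds the capillaries. It is laid down largely by endothelial and perivascular cells, since mouse beta cells make little of it, and beta cells bind its laminins and collagen IV through integrins. The whole-islet RNA studied here therefore mixes the cells that carry the gene deletion with the neighbours that make most of the matrix.

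The groups were Men1 RIP-Cre (floxed Men1, 3 arrays, called the Men1 knockout), Rbp2 RIP-Cre (floxed Rbp2, 4 arrays, called the Rbp2 knockout), Men1 Rbp2 RIP-Cre (both floxed genes, 4 arrays, called the double knockout), RIP-Cre (3 arrays) and wt (3 arrays), all untreated at 2 months of age. The 3 knockouts and the RIP-Cre controls share the RIP-Cre transgene, in which the rat insulin promoter drives Cre recombinase in beta cells, and endothelial, stromal and other islet cells keep both genes. Men1 encodes menin, a tumour suppressor that acts in histone methyltransferase complexes, and Rbp2, now Kdm5a, encodes a histone demethylase. The sample names count the arrays of a group as repeats without tying them to separate mice, so the errors below may be technical in part.

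Values are the deposited log2 intensities. A gene was called, and is said to have risen or fallen, when its adjusted p from limma was under 0.05 over all genes of a comparison. Intensities carry no counts, and the number of arrays limits the precision. The standard error of a member's log2 difference from RIP-Cre had a median of 0.14 for the Men1 knockout and 0.13 for the other knockouts. Levels are compared between arrays only, never between genes. The Men1 probe set, as a check of the labels, averaged 8.33 in the Men1 knockout, 10.12 in the Rbp2 knockout, 8.63 in the double knockout, 9.39 in RIP-Cre and 9.34 in wt. Kdm5a averaged 9.44, 9.04, 9.24, 9.26 and 9.24 in the same order and was not called in any knockout, so it does not check the Rbp2 labels, and whether its probe set covers the deleted part was not tested. The mean of 10 beta cell markers lay between 11.57 and 12.51 on the 17 arrays. Every probe set has a value on every array, so these values alone do not show which cells were present. Lower values of a gene in whole islets can be fewer cells of a type or less RNA per cell, which cannot be told apart here.

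Array-wide features touch all that follows. The array median over all genes lay between 7.86 and 7.87 in the Men1 knockout, 7.82 and 7.98 in the Rbp2 knockout, 7.88 and 7.95 in the double knockout, 7.97 and 8.16 in RIP-Cre, and 7.99 and 8.10 in wt. RIP-Cre array 3 had the highest median, and 34 of the 54 members had their highest value of all 17 arrays there. Rbp2 RIP-Cre array 1 had the lowest median, and 30 members had their lowest value there. The difference between each knockout and RIP-Cre also depended on level: in the Men1 knockout the median log2 difference of all genes was -0.37 at a mean level near 7.33 and 0.01 near 9.11. Results are therefore given on the deposited values and again after cyclic loess normalization, which evens out such level-dependent shifts between arrays. It moved the median difference of all genes from RIP-Cre to -0.02 in the Men1 knockout, -0.01 in the Rbp2 knockout and -0.01 in the double knockout, against -0.23, -0.13 and -0.15 on the deposited values. All genes called were 3126 higher and 7534 lower, 1336 and 1336, and 2600 and 4116 in these knockouts on the deposited values, and 3677 and 3198, 1119 and 760, and 2779 and 2269 after cyclic loess. With the array median held fixed in the fit the members split nearly evenly in these knockouts, with 27, 29 and 27 above 0 and 27, 25 and 27 below 0, and none was called, against 1.99%, 0.211% and 1.40% of all genes. The medians of the Men1 and double knockout arrays do not overlap with those of RIP-Cre, so there median and genotype cannot be told apart. All 3 knockouts were set against the same RIP-Cre arrays, so their differences are not independent of one another.

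The largest body of change lay between the Men1 knockout and RIP-Cre islets. Of the 54 genes, 37 fell and 1 rose, the exception being Col4a1. In this comparison 53.5% of all genes were called (37.8% lower and 15.7% higher), so the falls stood within a broad downward shift. The median log2 difference was -0.43 over the members and -0.23 over all genes. Every Men1 knockout array lay below every RIP-Cre array for 40 members, where 44.8% of all genes did so, and above for 1, where 18.7% did so. After cyclic loess 12 members fell and Col4a1 still rose, against 34.5% of all genes called, and all 13 had also been called on the deposited values. The median of the members was then -0.18. Without RIP-Cre array 3, 18 of the 38 calls were kept, while 6174 of all 19938 genes were called, against 10660 with it.

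**Figure D1:**
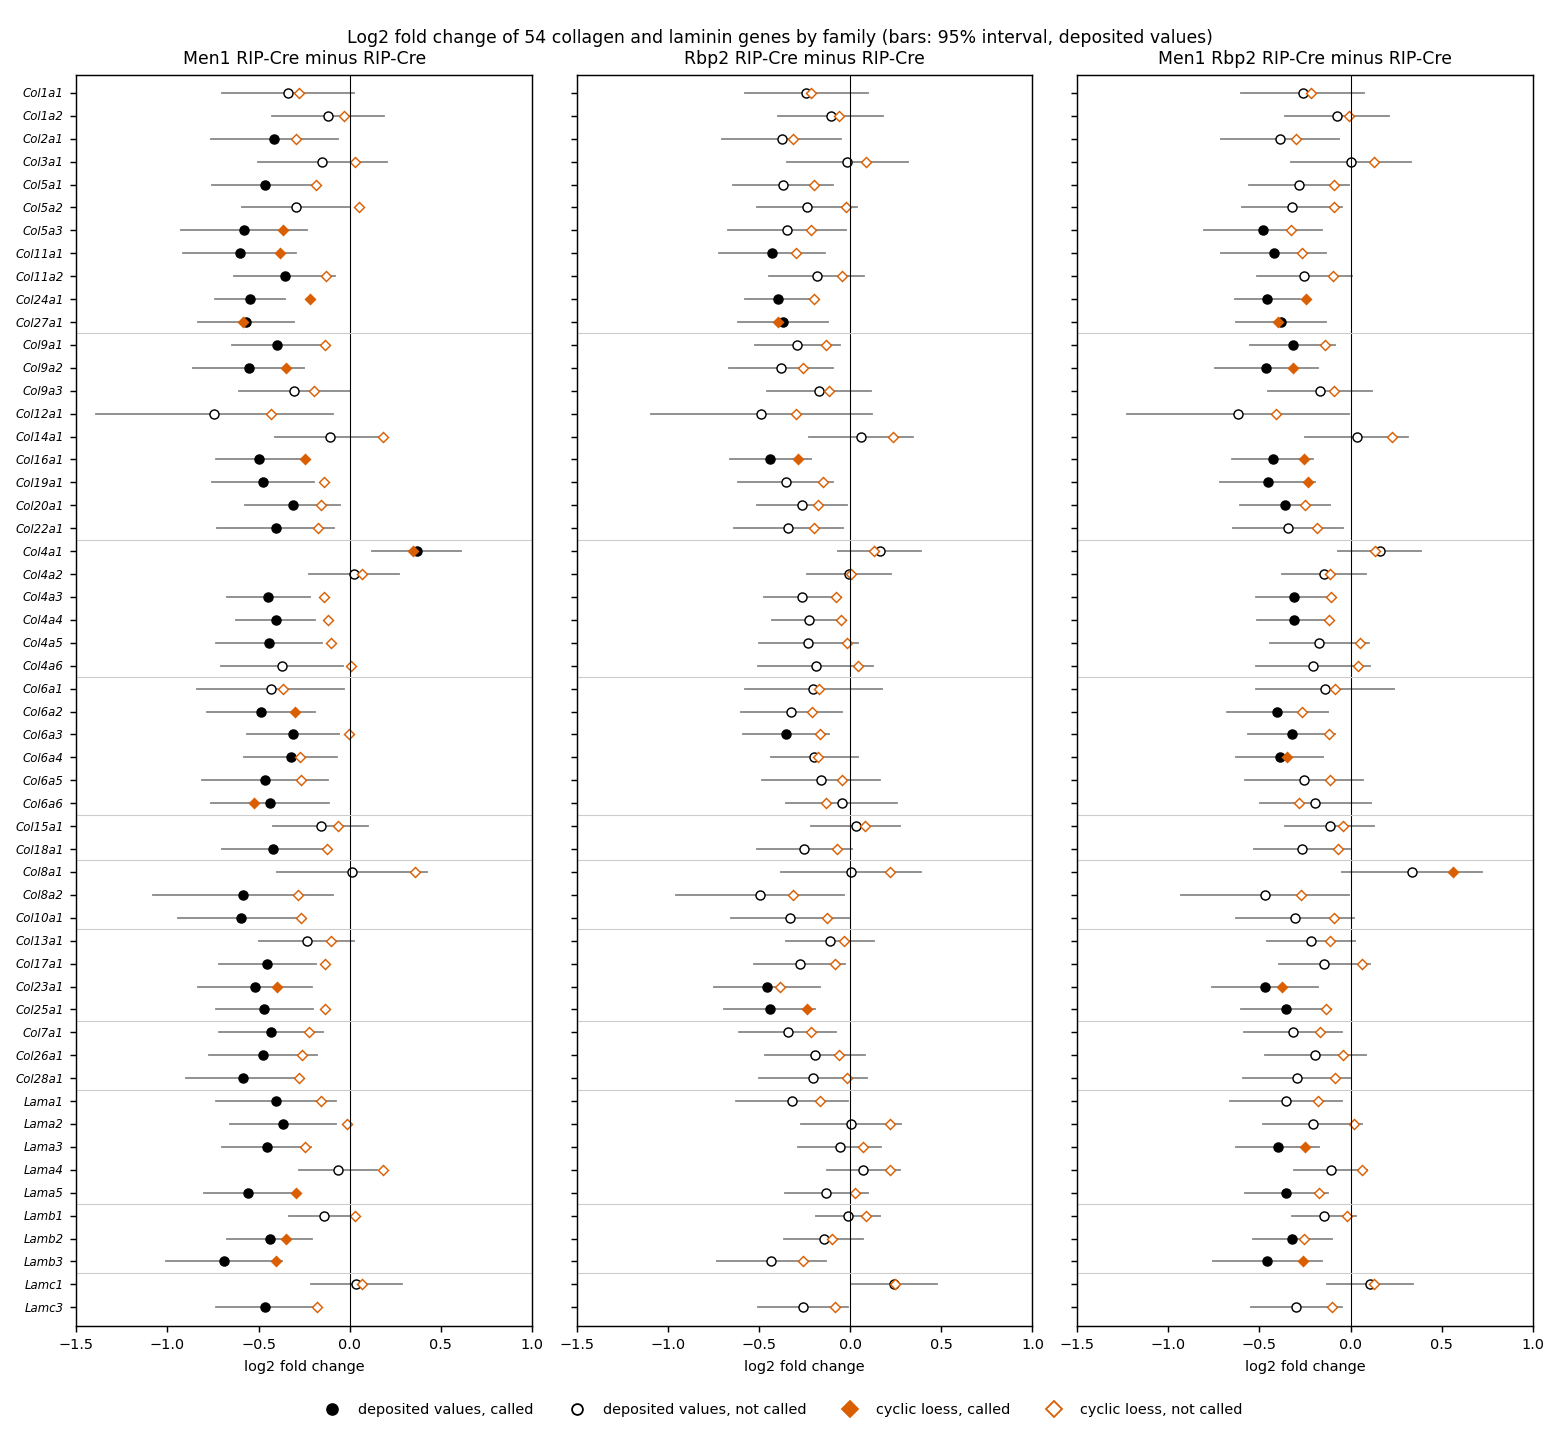
Log2 fold change (x axis) of each of the 54 genes (rows, in family blocks) in the Men1, Rbp2 and double knockouts, each minus RIP-Cre. Black circles are deposited values with 95% intervals, orange diamonds are values after cyclic loess, and filled symbols passed the limma threshold; most circles lie left of 0, most diamonds lie nearer to it, and Col4a1 is the one filled circle to the right.

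Col4a1 and Col4a2 encode the chains that join as the most widespread collagen IV, the main network of vascular basement membranes. Their genes lie head to head and are read outward from a shared promoter, which is shown because Col4a1 was the one member that rose in the Men1 knockout. The test of the difference between the chains, given with their values, did not pass after adjustment. The windows below are the RefSeq start regions on build GRCm38.p6, each 250 bases before to 50 after the annotated start, for Col4a1 on the minus strand at chr8:11312777-11313076 and for Col4a2 on the plus strand at chr8:11312555-11312854. Capitals mark the 78 bases that both windows hold, once on each strand.
Col4a1: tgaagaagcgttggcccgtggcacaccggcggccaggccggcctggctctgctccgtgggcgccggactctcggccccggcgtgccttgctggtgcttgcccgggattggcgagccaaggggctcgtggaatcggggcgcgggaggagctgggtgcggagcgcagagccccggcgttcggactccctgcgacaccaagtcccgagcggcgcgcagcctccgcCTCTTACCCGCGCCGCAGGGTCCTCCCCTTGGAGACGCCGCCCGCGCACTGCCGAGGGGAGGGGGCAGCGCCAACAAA
Col4a2: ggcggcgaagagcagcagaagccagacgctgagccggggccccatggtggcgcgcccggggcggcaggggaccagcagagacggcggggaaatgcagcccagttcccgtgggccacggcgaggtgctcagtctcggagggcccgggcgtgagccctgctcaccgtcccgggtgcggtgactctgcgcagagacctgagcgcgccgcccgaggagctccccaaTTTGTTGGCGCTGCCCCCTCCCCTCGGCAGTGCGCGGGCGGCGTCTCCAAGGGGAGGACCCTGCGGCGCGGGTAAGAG

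The letters CCAAT, the core bound by NF-Y, occur once in each window, on the reverse strand for Col4a1 and the forward strand for Col4a2. GGGCGG, the GC box, occurs 1 time in the Col4a1 window and 3 times in the Col4a2 window over both strands, and TATAAA in neither. Among all 32851 RefSeq windows of this length, 37.4% hold CCAAT, 35.7% GGGCGG and 13.6% TATAAA on either strand. A window was found for 40 of the 54 members, and the first window of 13, 25 and 5 of them holds these letters in the same order. These matches describe the letters only.

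Col4a1 read 9.50, 9.62 and 9.29 in the Men1 knockout, 8.98, 9.51, 9.30 and 9.27 in the Rbp2 knockout, 9.25, 9.27, 9.20 and 9.33 in the double knockout, 9.15, 9.06 and 9.10 in RIP-Cre, and 9.13, 9.10 and 9.00 in wt. All Men1 knockout and double knockout arrays lay above all 6 control arrays, and Rbp2 RIP-Cre array 1 lay below them. In the Men1 knockout the log2 difference from RIP-Cre was 0.37 (SE 0.12, n = 3 and 3 arrays, limma adjusted p = 0.0158). It was 0.34 (adjusted p = 0.0276) after cyclic loess and 0.39 (adjusted p = 0.0119) against wt. The call was lost without Men1 RIP-Cre array 2 (0.29, adjusted p = 0.0723), without the 3 control arrays of high median (0.36, adjusted p = 0.0514) and with the array median held fixed (0.51, adjusted p = 0.113). Col4a1 was not called in the Rbp2 knockout (0.16, adjusted p = 0.266) or the double knockout (0.16, adjusted p = 0.245). Genes of its level decile had a median difference of 0.01 in the Men1 comparison.

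Col4a2 read 8.89, 8.95 and 8.90 in the Men1 knockout, 8.67, 9.18, 8.92 and 8.76 in the Rbp2 knockout, 8.74, 8.85, 8.64 and 8.75 in the double knockout, 9.06, 8.75 and 8.86 in RIP-Cre, and 8.85, 8.92 and 8.91 in wt. The groups overlapped, with a log2 difference of 0.02 in the Men1 knockout (95% interval -0.22 to 0.27), -0.01 in the Rbp2 knockout and -0.14 in the double knockout. Taken within each array, which removes any shift that both chains share, Col4a1 minus Col4a2 was 0.61, 0.67 and 0.39 in the Men1 knockout, 0.31, 0.33, 0.38 and 0.51 in the Rbp2 knockout, 0.51, 0.42, 0.56 and 0.58 in the double knockout, 0.09, 0.31 and 0.24 in RIP-Cre, and 0.28, 0.18 and 0.09 in wt. No knockout array lay below any of the 6 control arrays, and Rbp2 RIP-Cre array 1 tied with RIP-Cre array 2. The means exceeded that of RIP-Cre by 0.34 in the Men1 knockout (two-sided exact permutation p = 0.1, the smallest that 3 against 3 arrays allow), by 0.17 in the Rbp2 knockout (exact p = 0.0857) and by 0.30 in the double knockout (exact p = 0.0286, the smallest for 4 against 3). After cyclic loess these differences were 0.28, 0.12 and 0.25 in the same order. Col4a2 and Col4a1 are separate probe sets, so the size of this difference on one array has no meaning by itself.

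The same within-array difference was taken for 5 other pairs of chains that assemble together, so that 18 tests were made in all, on pairs chosen after the values had been seen, and the adjusted p of the Col4a1 and Col4a2 pair was 0.225 in each comparison. No test had a smaller adjusted p. Col4a3 minus Col4a4, chains of the collagen IV of filtering epithelia, differed from RIP-Cre by -0.04 in the Men1 knockout, -0.04 in the Rbp2 knockout and 0.00 in the double knockout. Col1a1 minus Col1a2, the chains of collagen I, was lower by 0.22, 0.13 and 0.19 in these knockouts, with all Men1 and double knockout arrays below all RIP-Cre arrays but overlapping with wt (0.11, 0.06 and 0.29). Lamb1 minus Lamc1 was lower by 0.18, 0.26 and 0.25 with no overlap with RIP-Cre in any knockout, and after cyclic loess by 0.04, 0.16 and 0.15, but wt (-0.69, -0.72 and -0.43) overlapped with all 3. Col4a5 minus Col4a6, chains of epithelial and smooth muscle basement membranes, differed from RIP-Cre by -0.07, -0.04 and 0.04, and Col6a1 minus Col6a2, chains of the main collagen VI trimer, by 0.05, 0.12 and 0.26. The last had an exact p of 0.171 and overlapped with RIP-Cre.

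**Figure D2:**
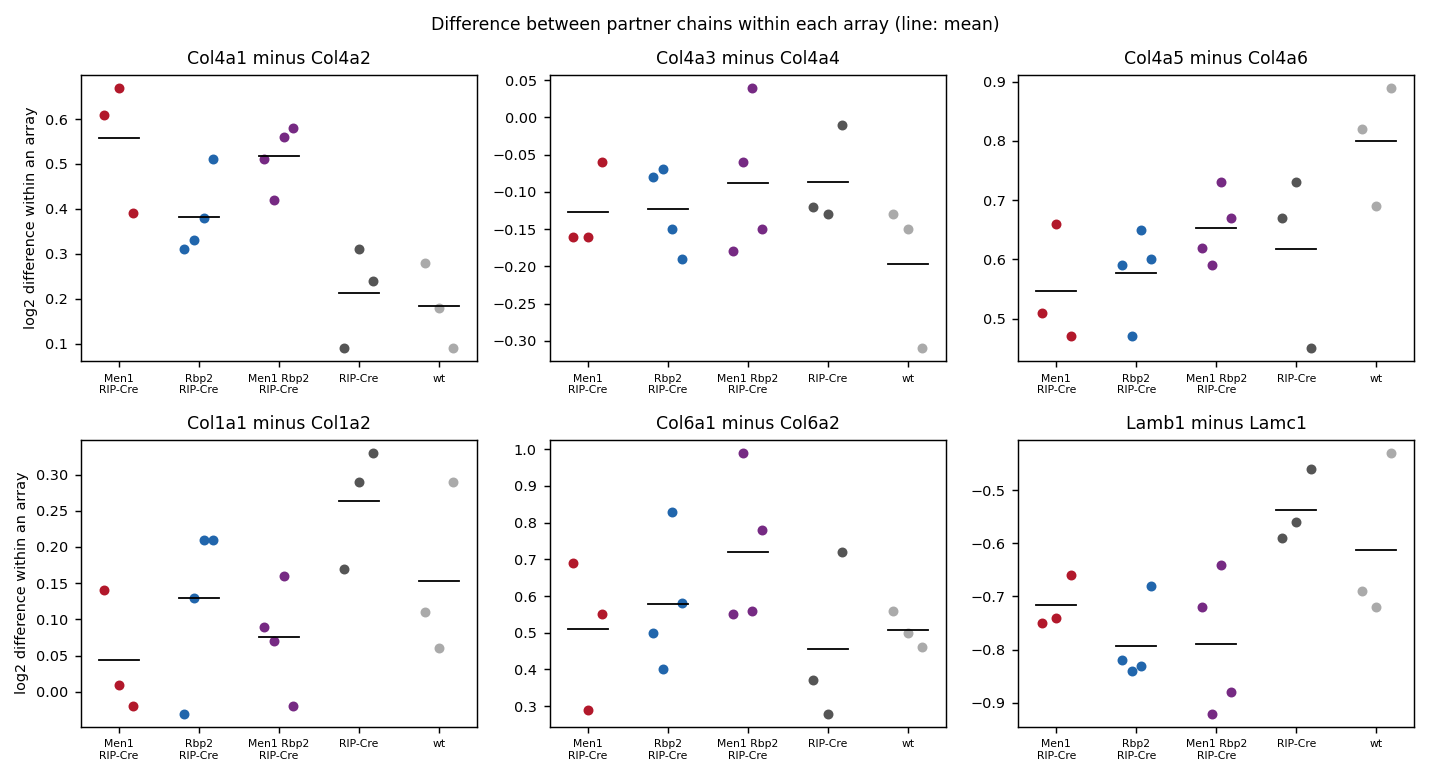
Difference between the log2 intensities of 2 partner chains within an array (y axis) in the 5 groups (x axis), 1 point per array and a line at the mean. Col4a1 minus Col4a2 sits between 0.31 and 0.67 on the knockout arrays, against 0.09 to 0.31 on the control arrays, while the knockout and RIP-Cre points of Col4a3 minus Col4a4 overlap.

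Of the other collagen IV chains, Col4a3 (-0.45), Col4a4 (-0.41) and Col4a5 (-0.44) fell in the Men1 knockout and Col4a6 did not pass (-0.37, adjusted p = 0.0563). None of these 4 was called after cyclic loess, where their log2 differences lay at -0.14, -0.12, -0.10 and 0.00. Genes of their level deciles had median differences of -0.32 to -0.37.

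Of the 10 laminin genes, 7 fell in the Men1 knockout islets against RIP-Cre islets and 3 remained after cyclic loess. Of all genes 37.8% fell in this comparison, and 34.5% were called after cyclic loess. Lama5, the alpha chain of the islet capillary basement membrane that beta cells bind, read 7.47, 7.45 and 7.38 in the Men1 knockout, 7.70, 7.96, 7.85 and 7.92 in the Rbp2 knockout, 7.69, 7.66, 7.54 and 7.66 in the double knockout, 8.09, 7.72 and 8.16 in RIP-Cre, and 8.22, 7.98 and 8.28 in wt. All Men1 and double knockout arrays lay below every control array, and the Rbp2 knockout overlapped with RIP-Cre. Its log2 difference from RIP-Cre in the Men1 knockout was -0.56 (SE 0.12, adjusted p = 0.00189) on the deposited values, -0.30 (adjusted p = 0.0146) after cyclic loess and -0.73 (adjusted p = 0.000409) against wt.

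Lamb2, a beta chain that pairs with Lama5, read 8.32, 8.48 and 8.32 in the Men1 knockout, 8.47, 8.81, 8.68 and 8.71 in the Rbp2 knockout, 8.51, 8.49, 8.37 and 8.60 in the double knockout, 8.70, 8.73 and 9.01 in RIP-Cre, and 8.90, 8.69 and 8.74 in wt. All Men1 and double knockout arrays again lay below all controls. The log2 difference in the Men1 knockout was -0.44 (SE 0.11, adjusted p = 0.00504), and -0.35 (adjusted p = 0.0128) after cyclic loess.

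Lamb3, a beta chain of the laminin that anchors surface epithelia, had the largest log2 difference among the called members at -0.69 (SE 0.15, adjusted p = 0.00262). It read 7.23, 7.38 and 7.33 in the Men1 knockout, 7.26, 7.70, 7.73 and 7.59 in the Rbp2 knockout, 7.56, 7.54, 7.74 and 7.35 in the double knockout, 7.85, 7.82 and 8.34 in RIP-Cre, and 8.04, 7.74 and 8.05 in wt. The Men1 and Rbp2 knockout arrays were all below the controls, and 1 double knockout array tied with wt array 2. After cyclic loess the Men1 difference was -0.40 (adjusted p = 0.0059). Its partner Lama3 fell by 0.46 on the log2 scale (adjusted p = 0.00533), with an adjusted p of 0.0501 after cyclic loess. Lama2, the alpha chain of muscle and nerve, fell by 0.37 (adjusted p = 0.0348) but lay at -0.02 after cyclic loess.

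The other chains of the vascular laminins did not pass. Lama4, the endothelial alpha chain, differed by -0.06 (95% interval -0.28 to 0.15), Lamb1 by -0.14 (-0.33 to 0.04) and Lamc1, the gamma chain that most laminins share, by 0.04 (-0.21 to 0.29).

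**Figure D3:**
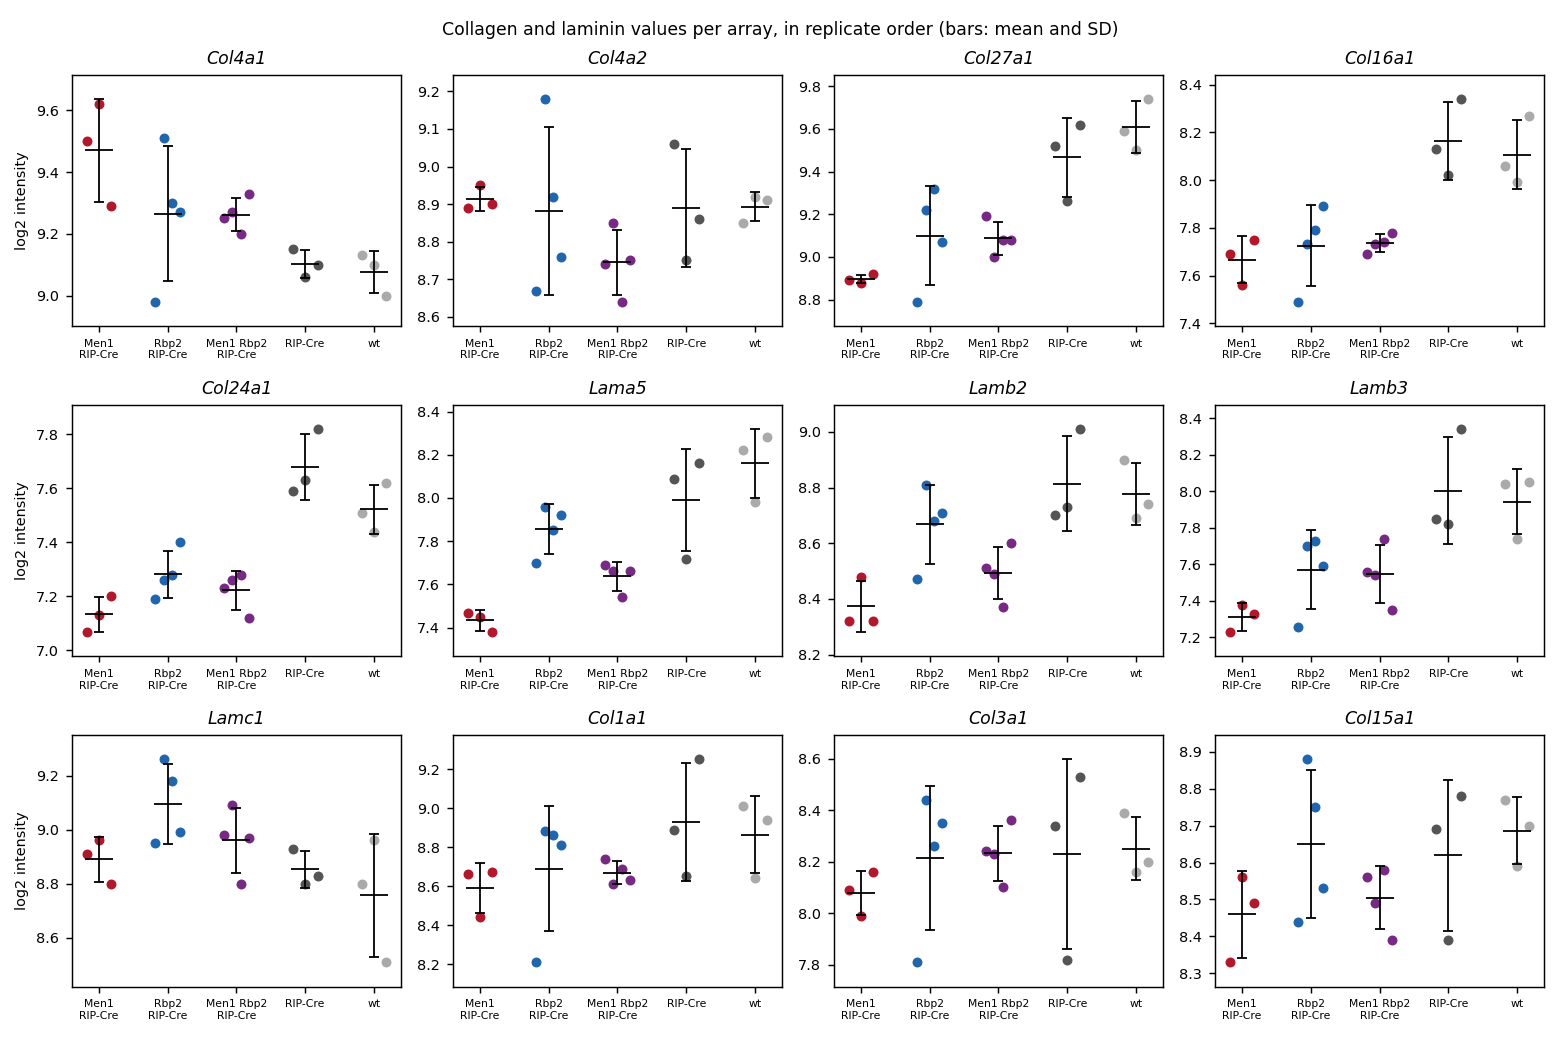
Log2 intensity (y axis, own range in each panel) of 12 genes on every array of the 5 groups (x axis), with the mean and SD of each group. Col4a1 is high in Men1 RIP-Cre, Col27a1, Col16a1, Col24a1, Lama5, Lamb2 and Lamb3 are low there, and Col4a2, Lamc1, Col1a1, Col3a1 and Col15a1 passed no test.

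Of the 11 fibrillar collagens 7 fell in the Men1 knockout, where 37.8% of all genes fell, and all 11 lay below 0. The chains of stromal collagens I and III did not pass, and whether they differed from the others was not tested. Col1a1 differed by -0.34 (95% interval -0.70 to 0.02, adjusted p = 0.0996), Col1a2 by -0.12 (-0.43 to 0.19) and Col3a1 by -0.15 (-0.50 to 0.20). Col1a1 read 8.66, 8.44 and 8.67 in the Men1 knockout and 8.89, 8.65 and 9.25 in RIP-Cre, which overlapped. Among those that fell were Col11a1 (-0.60), Col5a3 (-0.58) and Col11a2 (-0.36), chains of thin fibrils, and after cyclic loess Col11a1 (-0.38) and Col5a3 (-0.37) were still called.

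Col27a1, a fibrillar collagen best known from cartilage, fell in all 3 knockouts. It read 8.89, 8.88 and 8.92 in the Men1 knockout, 8.79, 9.22, 9.32 and 9.07 in the Rbp2 knockout, 9.19, 9.00, 9.08 and 9.08 in the double knockout, 9.52, 9.26 and 9.62 in RIP-Cre, and 9.59, 9.50 and 9.74 in wt. The Men1 and double knockout arrays were below all 6 controls, and in the Rbp2 knockout 1 array lay above RIP-Cre array 2. Its log2 differences from RIP-Cre were -0.57 (SE 0.12, adjusted p = 0.00258) in the Men1 knockout, -0.37 (SE 0.12, adjusted p = 0.0487) in the Rbp2 knockout and -0.38 (SE 0.12, adjusted p = 0.0232) in the double knockout. After cyclic loess they were -0.59, -0.40 and -0.40, and genes of its level decile had medians of 0.01, 0.03 and 0.01. Against wt they were -0.71, -0.51 and -0.52, with adjusted p of 0.000754, 0.0206 and 0.00664. Without RIP-Cre array 3 the adjusted p was 0.0164 in the Men1 knockout, 0.217 in the Rbp2 knockout and 0.122 in the double knockout. The window at its start is shown because the gene was called in all 3 knockouts on both scales. It lies on the plus strand at chr4:63215162-63215461 (RefSeq, GRCm38.p6), and holds GGGCGG 2 times over both strands and neither CCAAT nor TATAAA.
Col27a1: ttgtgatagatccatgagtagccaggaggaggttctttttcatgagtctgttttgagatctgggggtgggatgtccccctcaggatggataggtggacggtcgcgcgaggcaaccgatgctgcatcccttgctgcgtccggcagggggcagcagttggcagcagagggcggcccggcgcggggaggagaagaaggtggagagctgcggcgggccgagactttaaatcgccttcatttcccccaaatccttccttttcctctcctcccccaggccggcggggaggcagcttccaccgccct

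Col24a1, a fibrillar collagen of forming bone, had the smallest adjusted p among the members. It read 7.07, 7.13 and 7.20 in the Men1 knockout, 7.19, 7.26, 7.28 and 7.40 in the Rbp2 knockout, 7.23, 7.26, 7.28 and 7.12 in the double knockout, 7.59, 7.63 and 7.82 in RIP-Cre, and 7.51, 7.44 and 7.62 in wt. Every knockout array was below every control array. The log2 difference was -0.55 in the Men1 knockout (SE 0.09, adjusted p = 0.000531), -0.40 in the Rbp2 knockout (adjusted p = 0.0151) and -0.46 in the double knockout (adjusted p = 0.00264). Cyclic loess left -0.22 (adjusted p = 0.0254), -0.20 (adjusted p = 0.068) and -0.24 (adjusted p = 0.016). In the Men1 and double knockouts it stayed called whichever array was left out.

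FACIT collagens sit on the surface of fibrils. In the Men1 knockout 6 of 9 fell, where 37.8% of all genes fell. Among them were Col9a2 (-0.55), Col16a1 (-0.50), Col19a1 (-0.48), Col9a1 (-0.40) and Col20a1 (-0.31). Col9a2 (-0.35) and Col16a1 (-0.25) were also called after cyclic loess, where 34.5% of all genes were called. Col16a1 read 7.69, 7.56 and 7.75 in the Men1 knockout, 7.49, 7.73, 7.79 and 7.89 in the Rbp2 knockout, 7.69, 7.73, 7.74 and 7.78 in the double knockout, 8.13, 8.02 and 8.34 in RIP-Cre, and 8.06, 7.99 and 8.27 in wt. All knockout arrays lay below all controls.

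Collagen VI forms beaded filaments around cells. Of its 6 chains 5 fell in the Men1 knockout, where 37.8% of all genes fell. They fell by 0.31 (Col6a3) to 0.49 (Col6a2) on the log2 scale, with Col6a4 at -0.32. Col6a1 did not pass (-0.43, limma adjusted p = 0.0647). Col6a2 (-0.30) and Col6a6 (-0.53) remained after cyclic loess, where 34.5% of all genes were called, and Col6a3 lay at -0.01. Col6a6 read 9.23, 9.62 and 9.36 in the Men1 knockout, against 9.85, 9.97 and 9.70 in RIP-Cre.

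Of the multiplexins, basement membrane collagens with heparan sulphate or chondroitin sulphate chains, Col18a1 fell by 0.42 (adjusted p = 0.0157) but lay at -0.13 (adjusted p = 0.286) after cyclic loess, and Col15a1 did not pass (-0.16, 95% interval -0.42 to 0.10). Col10a1 (-0.60) and Col8a2 (-0.58), short-chain collagens of growth plate and cornea, and Col28a1 (-0.58), a collagen of peripheral nerve, also fell, and none of these 3 was called after cyclic loess. Of the transmembrane collagens Col23a1 (-0.52) fell on both scales, and Col17a1 (-0.45) and Col25a1 (-0.47) on the deposited values only.

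**Figure D4:**
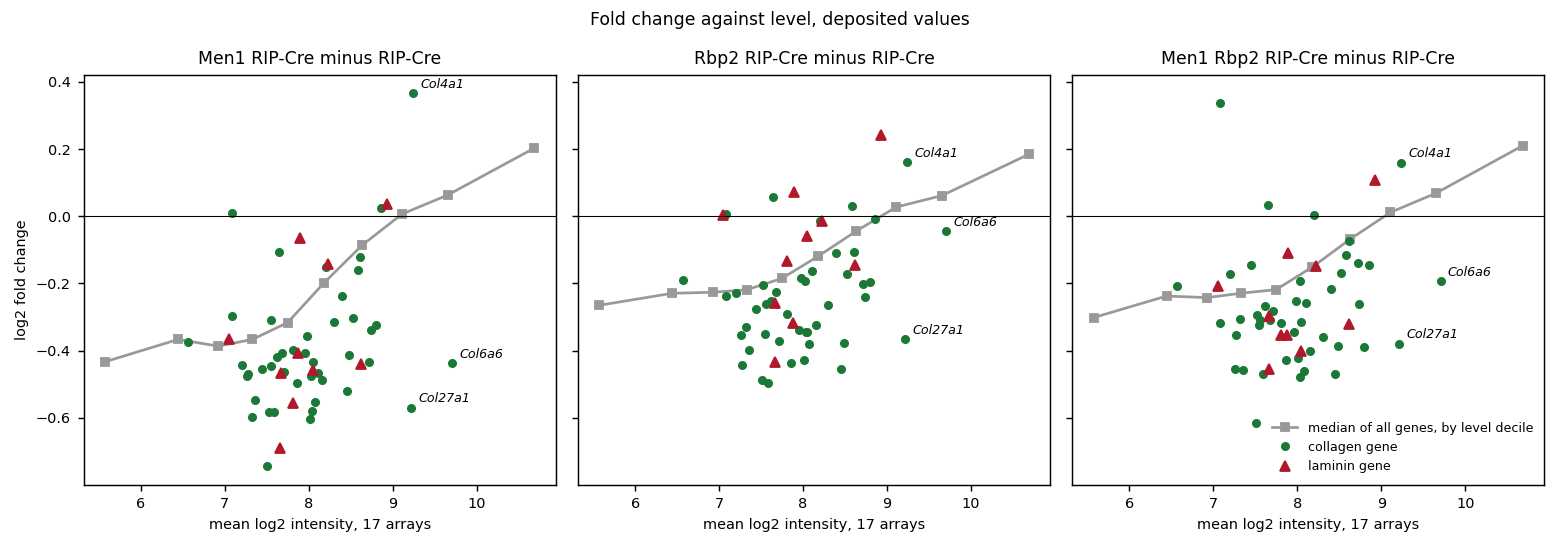
Log2 fold change against RIP-Cre (y axis) by mean log2 intensity over 17 arrays (x axis) for the 44 collagens (circles) and 10 laminins (triangles), with the median of all genes in each level decile (grey line). The line climbs with level in all 3 knockouts, Col4a1 lies above it, and Col27a1 and Col6a6 lie below it.

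Rbp2 RIP-Cre islets showed fewer changes. Of the 54 genes 7 fell and none rose: Col16a1 (-0.44), Col23a1 (-0.45), Col25a1 (-0.44), Col11a1 (-0.43), Col24a1 (-0.40), Col27a1 (-0.37) and Col6a3 (-0.35), with adjusted p from 0.0151 to 0.0493. In this comparison 13.4% of all genes were called, 6.70% higher and 6.70% lower. The median log2 difference was -0.24 over the members and -0.13 over all genes. Every array lay below every RIP-Cre array for 13 members and above for 1, Lamc1, where 15.4% and 11.6% of all genes did so. Lamc1 read 8.95, 9.26, 9.18 and 8.99 in the Rbp2 knockout, against 8.93, 8.80 and 8.83 in RIP-Cre, and did not pass (0.24, adjusted p = 0.12). None of the 10 laminins was called, although 4 had an unadjusted limma p under 0.05. After cyclic loess Col16a1, Col25a1 and Col27a1 were called, against 9.42% of all genes. Without RIP-Cre array 3 no member was called, while 223 of all 19938 genes were, against 2672 with it.

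In the double knockout 20 of the 54 genes fell and none rose against RIP-Cre, where 33.7% of all genes were called (20.6% lower). The median log2 difference was -0.31 over the members and -0.15 over all genes. Arrays lay wholly below RIP-Cre for 30 members and above for Col4a1 alone, where 24.9% and 14.2% of all genes did so. The lowest called differences were those of Col5a3 (-0.48), Col23a1 (-0.47), Col9a2 (-0.46), Col24a1 (-0.46), Lamb3 (-0.46), Col19a1 (-0.45), Col16a1 (-0.43) and Col11a1 (-0.42). The lowest of all members, Col12a1 at -0.62, was not called. The smallest called differences were those of Col4a3 (-0.31), Col4a4 (-0.31), Col9a1 (-0.32), Lamb2 (-0.32), Col6a3 (-0.32), Lama5 (-0.35), Col25a1 (-0.35) and Col20a1 (-0.36). Each of the 20 genes was also called in the Men1 knockout, where 53.5% of all genes were. Both knockouts were set against the same RIP-Cre arrays, and this overlap was not counted over all genes.

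After cyclic loess 9 members fell and 1 rose in the double knockout, against 25.3% of all genes called. The 9 were Col16a1, Col19a1, Col23a1, Col24a1, Col27a1, Col6a4, Col9a2, Lama3 and Lamb3. The one that rose, Col8a1, a short-chain collagen of vessel walls, read 7.30, 7.38, 7.06 and 7.60 in the double knockout, against 6.83, 6.73 and 7.43 in RIP-Cre. Its log2 difference was 0.56 (adjusted p = 0.0111) after cyclic loess and 0.34 (adjusted p = 0.149) on the deposited values, where the groups overlapped. Without RIP-Cre array 3 only Col24a1 was called in the double knockout on the deposited values. Of all 19938 genes 2371 were called then, against 6716 with that array.

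Across the knockouts, 7 genes fell in all 3 comparisons with RIP-Cre: Col11a1, Col16a1, Col23a1, Col24a1, Col25a1, Col27a1 and Col6a3. Col16a1 and Col27a1 were the 2 of these that were called in all 3 after cyclic loess too. In none of the 3 were 16 genes called on the deposited values. Among them were Col1a1, Col1a2, Col3a1, Col4a2, Col6a1, Col15a1, Lama4, Lamb1 and Lamc1. Of all genes 53.5%, 13.4% and 33.7% were called in the Men1, Rbp2 and double knockouts. How many of all genes were called in all 3 or in none was not counted, and the comparisons share the RIP-Cre arrays.

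The transgene alone was assessed in RIP-Cre against wt islets. No member was called by limma, none had an unadjusted p under 0.05, and 0% of all genes were called. The member differences ranged from -0.17 (Lama5) to 0.40 (Col12a1) on the log2 scale with a median of 0.00. Col12a1 read 7.83, 7.91 and 8.16 in RIP-Cre, against 7.95, 7.61 and 7.14 in wt, so that a wide spread lay within wt.

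The double knockout was also set against each single knockout. Against the Men1 knockout no member was called by limma (3 had an unadjusted p under 0.05), with 1.67% of all genes called. The median of the members was 0.11, against 0.07 over all genes, and double knockout arrays lay wholly above Men1 knockout arrays for 14 members and below for 1, Col4a2, where 14.3% and 6.15% of all genes did so. Col4a1 had a difference of -0.21 (95% interval -0.44 to 0.02, adjusted p = 0.393).

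Against the Rbp2 knockout no member was called by limma either (2 had an unadjusted p under 0.05, Lama3 and Lama5), with 1.20% of all genes called. All 10 laminin genes had log2 differences below 0, between -0.34 (Lama3) and -0.02 (Lamb3), with a median of -0.16, against a median of -0.01 over all genes, of which 53.4% lay below 0. Of the 44 collagens, 28 lay below 0. Lama3 read 7.88, 7.74, 7.83 and 7.83 in the double knockout, against 7.97, 8.33, 8.10 and 8.25 in the Rbp2 knockout, with no overlap (-0.34, adjusted p = 0.122). Lama5 did not overlap either (-0.22, adjusted p = 0.395). These were the 2 members wholly below, and Col17a1 was the 1 wholly above, where 3.73% and 3.39% of all genes did so. After cyclic loess all 10 laminins again lay below 0, and with the array median held fixed 8 did. The laminins were read on the same arrays, so their directions are not independent of one another.

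The endothelial marker list differed between these groups in the same direction. The mean of its 13 markers lay between 9.02 and 9.18 in the double knockout, against 9.25 to 9.63 in the Rbp2 knockout. With that mean held fixed in the fit, 2 of the 10 laminins lay below 0 and their median was 0.07, while the median of all genes was 0.05 and 0.0451% of them were called. No laminin was called with or without it. The 2 groups do not overlap in this mean, so it and the genotype cannot be told apart in this comparison.

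**Figure D5:**
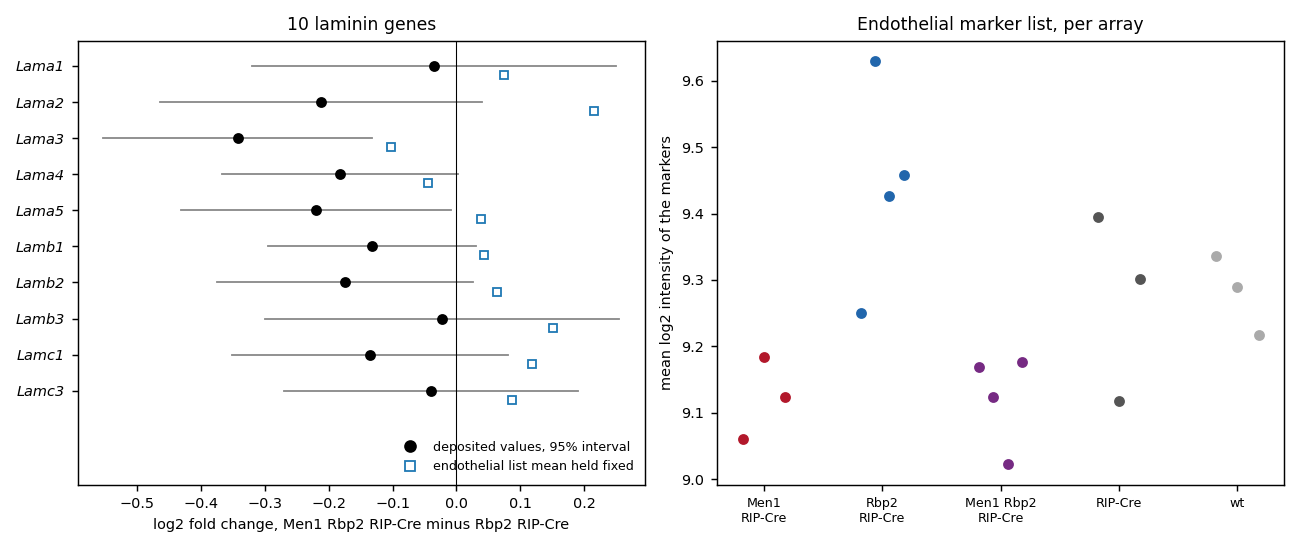
Left, log2 fold change (x axis) of the 10 laminin genes in the double knockout minus Rbp2 RIP-Cre, with 95% intervals (circles) and with the endothelial list mean held fixed (squares). Right, mean log2 intensity of 13 endothelial markers (y axis) on each array of the 5 groups (x axis), where the Rbp2 RIP-Cre arrays lie above the double knockout arrays.

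The interaction, which asks whether loss of Rbp2 has another effect in Men1 knockouts than in RIP-Cre islets, was called for Col24a1 (0.49, adjusted p = 0.0436), where 3.39% of all genes were called. The double knockout of Col24a1 lay 0.09 above the Men1 knockout, while Rbp2 RIP-Cre lay 0.40 below RIP-Cre. Genes of its level decile had a median interaction of 0.35, against 0.20 over all genes. After cyclic loess, where 2.53% of all genes were called, no member was. Without RIP-Cre array 3 none was either, while 36 of all 19938 genes were, against 675 with it.

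Other genes of the matrix were counted by role against RIP-Cre, where 53.5% of all genes were called in the Men1 knockout (37.8% lower), 13.4% in the Rbp2 knockout and 33.7% in the double knockout, with all-gene medians of -0.23, -0.13 and -0.15. A list whose share lies near these does not stand apart from all genes. The lowest genes named in each list are the lowest among those called. Of 16 other basement membrane proteins, 8 fell and none rose in the Men1 knockout (median -0.28), 2 fell in the Rbp2 knockout (median -0.14) and 4 fell in the double knockout (median -0.15). In the Men1 knockout the lowest were Egfl7 (-0.82, adjusted p = 0.00276), a protein secreted by endothelium, and the calcium-binding Smoc1 (-0.72) and Smoc2 (-0.70), and all 3 remained after cyclic loess. Fbln1 (-0.50) and Smoc2 (-0.46) fell in the Rbp2 knockout, and Egfl7 (-0.60), Fbln1 (-0.53) and Smoc1 (-0.48) were the lowest in the double knockout.

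Of 27 genes that fold, process and crosslink collagen, 3 rose and 6 fell in the Men1 knockout, 3 rose and 1 fell in the Rbp2 knockout, and 2 rose and 2 fell in the double knockout. Bmp1, the protease that trims procollagen ends, rose in the Men1 knockout (0.47, adjusted p = 0.00108) and the double knockout (0.56, adjusted p = 0.00086) and was called in neither after cyclic loess. Kdelr3 (0.72), a receptor that returns escaped chaperones to the endoplasmic reticulum, and P3h2 (0.29), which hydroxylates prolines of collagen IV, rose in the Men1 knockout on both scales. Ppib, a proline isomerase of collagen folding, rose in the Rbp2 (0.89) and double (0.71) knockouts on both scales. P4hb (0.65) and Loxl4 (0.31) rose and Pcolce2 (-0.42) fell in the Rbp2 knockout, where 2 of the list rose and none fell after cyclic loess. Adamts14 (-0.58), Colgalt2 (-0.52) and P4ha3 (-0.43) were the lowest in the Men1 knockout, and Adamts14 (-0.45) and Loxl3 (-0.26) fell in the double knockout.

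Of 21 receptors for collagens and laminins, 4 rose and 7 fell in the Men1 knockout, 1 rose in the Rbp2 knockout, and 5 rose and 3 fell in the double knockout. Itgb1, the integrin chain shared by the main collagen and laminin receptors, rose in the Men1 knockout (0.82, adjusted p = 0.00135) and the double knockout (0.47, adjusted p = 0.0256), on both scales. Sgcb (0.63) and Itga1 (0.35) also rose in the Men1 knockout, and Itgb4 (-0.80), the partner chain of epithelial laminin receptors, Sgca (-0.66) and Itga7 (-0.56) were the lowest there. Cd44 rose in the Rbp2 knockout (0.79, adjusted p = 0.0125) and the double knockout (0.85, adjusted p = 0.00263). In the double knockout Sdc4 (0.50) rose, and Itgb4 (-0.52), Itga7 (-0.34) and Utrn (-0.30) fell.

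Of 16 matrix proteases and inhibitors, 8 fell in the Men1 knockout, 6 fell in the double knockout, and 1 rose and 2 fell in the Rbp2 knockout. Mmp11 (-0.72), Mmp10 (-0.71) and Mmp9 (-0.69) were the lowest in the Men1 knockout. Mmp11 (-0.60), Mmp9 (-0.53) and Mmp10 (-0.44) were the lowest in the double knockout, and none of the list was called there after cyclic loess. In the Rbp2 knockout Mmp11 (-0.72) and Mmp10 (-0.52) fell and the protease inhibitor Timp3 rose (0.75, adjusted p = 0.0216).

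Of 17 interstitial matrix proteins, 2 rose and 8 fell in the Men1 knockout, 1 rose and 3 fell in the double knockout, and none was called in the Rbp2 knockout by limma on the deposited values (2 rose after cyclic loess). Periostin (Postn) rose in the Men1 knockout (0.55, adjusted p = 0.0273) and the double knockout (0.53, adjusted p = 0.0369), on both scales, and Thbs1 rose in the Men1 knockout (0.48). Fbln5 (-0.63), Ogn (-0.61) and Tnc (-0.61) were the lowest in the Men1 knockout, and Tnc (-0.52), Fbln5 (-0.46) and Fbln2 (-0.45) in the double knockout.

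Markers of the cells that could supply the matrix also moved, and their part in the collagen and laminin results was tested only where a value is given. Beside the counts below, 37.8% of all genes fell and 15.7% rose in the Men1 knockout. In the Rbp2 knockout 6.70% fell and 6.70% rose, and in the double knockout 20.6% fell and 2600 of 19938 rose. The mean of 13 endothelial markers lay between 9.06 and 9.18 in the Men1 knockout, 9.25 and 9.63 in the Rbp2 knockout, 9.02 and 9.18 in the double knockout, 9.12 and 9.40 in RIP-Cre, and 9.22 and 9.34 in wt. In the Men1 knockout 4 of the 13 fell, among them Egfl7, Tie1 (-0.38) and Pecam1 (-0.37), and Emcn rose (0.42). In the Rbp2 knockout 3 rose, Emcn (0.56), Flt1 (0.41) and Kdr (0.40). In the double knockout 4 fell, including Pecam1 (-0.44) and Plvap (-0.42), and Emcn rose (0.39). On the cyclic loess values none of the 13 rose in the Men1 or double knockouts, so the rises of Emcn there were lost. In these values 3 fell in the Men1 knockout, 4 fell in the double knockout and 2 rose in the Rbp2 knockout. With the endothelial mean held fixed, 22 members were called in the Men1 knockout, 4 in the Rbp2 knockout and 4 in the double knockout, where 35.8%, 3.34% and 15.4% of all genes were called, and Col4a1 differed by 0.51 (adjusted p = 0.0039) in the Men1 knockout.

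The mean of 12 mesenchymal markers lay between 7.87 and 7.93 in the Men1 knockout, 7.90 and 8.35 in the Rbp2 knockout, 7.79 and 8.12 in the double knockout, 7.82 and 8.03 in RIP-Cre, and 7.99 and 8.52 in wt. The pericyte gene Rgs5 rose in all 3 knockouts, by 0.91 in Men1, 0.76 in Rbp2 and 0.77 in the double knockout, Acta2 rose in the Rbp2 knockout (0.66), and Cspg4 fell in the Men1 (-0.43) and double (-0.27) knockouts. In each knockout 10 of the 12 were not called. The list medians were -0.16, 0.165 and -0.02 in the Men1, Rbp2 and double knockouts, and 0.11, 0.25 and 0.16 after cyclic loess. On the cyclic loess values none of the 12 fell, and 1, 2 and 1 rose. With this mean held fixed, 36, 14 and 24 members were called in the Men1, Rbp2 and double knockouts, against 52.2%, 18.8% and 36.0% of all genes.

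Of 5 Schwann cell markers 4 fell in the Men1 knockout and 4 in the double knockout, where 37.8% and 20.6% of all genes fell. The list means were 7.44 to 7.50 in the Men1 knockout, 7.47 to 8.02 in the Rbp2 knockout, 7.57 to 7.72 in the double knockout, 7.97 to 8.45 in RIP-Cre and 7.88 to 8.19 in wt. Cdh19 (-1.25), Gfap (-0.66) and Sox10 (-0.63) were the lowest in the Men1 knockout and Cdh19 (-0.90), Gfap (-0.52) and Sox10 (-0.52) in the double knockout, all also called after cyclic loess. Of 9 macrophage markers 3 rose and 2 fell in the Men1 knockout, Lyz2 (1.54), C1qb (0.61), C1qc (0.47), Mrc1 (-0.55) and Cd163 (-0.51). In the double knockout Lyz2 (1.33), C1qb (0.80) and C1qc (0.48) rose and Cd163 (-0.47) fell. After cyclic loess those that rose were still called, and Mrc1 and Cd163 were not. The macrophage list means lay between 7.75 and 8.01 in the Men1 knockout, 7.61 and 7.76 in the Rbp2 knockout, 7.81 and 8.21 in the double knockout, 7.66 and 7.68 in RIP-Cre, and 7.68 and 8.24 in wt.

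Of 10 beta cell markers 7 rose in the Men1 knockout, 3 in the Rbp2 knockout and 6 in the double knockout, while after cyclic loess 5 rose and 2 fell, 1 rose, and 2 rose and 3 fell in these groups. On the deposited values 15.7% of all genes rose in the Men1 knockout, 6.70% in the Rbp2 knockout and 2600 of 19938 in the double knockout. The list means lay between 12.40 and 12.51 in the Men1 knockout, 12.15 and 12.34 in the Rbp2 knockout, 12.22 and 12.43 in the double knockout, and 11.57 and 12.09 in RIP-Cre. G6pc2 rose by 1.35, 0.91 and 1.16 in these knockouts, Slc2a2 by 0.95 in the Men1 and 0.76 in the double knockout, and Ucn3 by 0.89 and 0.68 in the same pair. Pcsk1 (0.64) and Iapp (0.36, at -0.13 after cyclic loess) rose in the Rbp2 knockout.

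Of 6 duct markers Cftr (-0.72), Onecut1 (-0.61) and Krt19 (-0.45) fell in the Men1 knockout, Cftr (-0.52) in the Rbp2 knockout, and Cftr (-0.83) and Onecut1 (-0.48) in the double knockout. For these and the next lists, 37.8%, 6.70% and 20.6% of all genes fell in these knockouts. Of 9 acinar markers Ptf1a alone was called, lower in the Men1 knockout (-0.81), while the median of the list there was 0.12. The acinar list means spread widely within groups, between 8.36 and 10.24 in the Men1 knockout, 8.10 and 9.29 in the Rbp2 knockout, 8.28 and 10.42 in the double knockout, 7.87 and 10.40 in RIP-Cre, and 8.71 and 9.73 in wt. Of 7 lymphocyte markers Cd79a rose in the Men1 (1.26) and double (1.20) knockouts and Cd2 (-0.66) and Ighm (-0.60) fell in the Men1 knockout. Of 5 mesothelial markers 4 fell in the Men1 knockout, with Lrrn4 (-0.67), Upk1b (-0.63) and Wt1 (-0.60) lowest, Msln rose in the Rbp2 knockout (1.70), and Lrrn4 fell in the double knockout (-0.48). The other mesothelial markers were not called in the Rbp2 knockout, where the list median was -0.36. Of 5 adipocyte markers Plin1 (-0.56) and Adipoq (-0.52) fell in the Men1 knockout, and Adipoq fell in the Rbp2 (-0.49) and double (-0.32) knockouts. Of the genes named in these lists, Cftr in the double knockout, Cd79a in the Men1 and double knockouts, Ighm, Lrrn4 and Plin1 in the Men1 knockout and Msln in the Rbp2 knockout were also called after cyclic loess. No marker was read at 0 on any array. The part of the lists other than the endothelial and mesenchymal ones in the collagen and laminin results was not tested.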

How the data were processed

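The deposited table holds log2 intensities, 1 value per probe set and array, for 35512 probe sets on 17 arrays. The unit was read from the values, and the sources used here do not give the steps by which the authors normalized them. Per the labels' protocols, total RNA of isolated islets was made into biotin-labelled single-stranded DNA for whole-transcript arrays. No 2 arrays were copies (smallest root mean square difference 0.357). Probe sets were named with the platform's gene table: 21789 named 1 gene, 1621 several and 12102 were not in the table. The probe set with the highest mean stood for each of 19938 genes, and 2 members, Col6a5 and Col6a6, had a second probe set.

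The 5 groups were fitted together with limma 3.58.1 in R 4.3.3 (lmFit, eBayes), with Benjamini-Hochberg adjustment over all genes of a comparison. The procedure was also run on simulated arrays with independent noise for each gene and no array-wide or level-dependent shift. That run does not test calls made under such shifts. Partner chains were compared by exact permutation over arrays. Promoter windows are from RefSeq, GRCm38.p6. Besides the members with the 8 highest and 8 lowest called differences per comparison (all where 16 or fewer were called), 14 common islet and stromal chains were always named, and of each other list up to 3 called genes in each direction against RIP-Cre, with Men1 and Kdm5a as the check. Members, lists and alternatives were chosen with earlier results of these data known, and the chain pairs after seeing the data. Alternatives were cyclic loess and quantile normalization, the array median or a marker list mean as a covariate, the replicate number as a block, other probe sets, a level filter, wt as control, fewer groups or arrays, and each array left out in turn.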

Additional observations from a re-analysis of the deposited data

Results flagged for a closer look

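Several values stood apart from the other arrays of their group by Dixon's criterion, which was applied to the 4 arrays of Rbp2 RIP-Cre and of the double knockout for each of the 54 genes. In 108 such groups 8 values stood apart. Chance gives about 1 in 20 for independent tests, but the 54 genes share the same arrays, so that rate does not hold here.

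Of these, 7 were the lowest value of Rbp2 RIP-Cre array 1, the array with the lowest median. It read 7.77 for Col9a2 (others 8.04 to 8.09), 7.07 for Col6a3 (7.51 to 7.55), 7.69 for Col6a5 (8.23 to 8.30), 8.21 for Col1a1 (8.81 to 8.88), 6.70 for Col5a2 (7.12 to 7.13), 7.32 for Lamc3 (7.67 to 7.74) and 6.23 for Col4a6 (6.63 to 6.70). The last was Col7a1 at 7.83 in double knockout array 4 (others 8.01 to 8.04).

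Col24a1 drew attention because the effect of Rbp2 loss differed between the Men1 knockout and RIP-Cre backgrounds in the interaction test (0.49, limma adjusted p = 0.0436). Genes of its level decile had a median interaction of 0.35. Col24a1 was not called after cyclic loess, where no member was.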

How the results depend on the processing

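The counts of called members moved with the processing. For Men1 RIP-Cre, Rbp2 RIP-Cre and the double knockout against RIP-Cre and for the interaction, 38, 7, 20 and 1 members were called on the deposited values. Cyclic loess gave 13, 3, 10 and 0, the endothelial mean as a covariate 22, 4, 4 and 4, and the array median as a covariate 0 in all 4, with 1 (Lama3) in the double knockout against Rbp2 RIP-Cre. Quantile normalization gave 17 for the Men1 knockout and 0 for the interaction, with 6983 and 340 of all genes called. With the endothelial mean, 1019 of all genes were called in the interaction. For the Rbp2 knockout all probe sets gave 3, only the groups compared 0, wt as control 2 and the mesenchymal mean 14. Called in all were 3545 of 35512 probe sets, and 1080, 1771 and 3747 of all genes, in the same order. The interaction had 0 with all probe sets, 2 with an intensity trend, and 6 with the mesenchymal mean or the 25th percentile filter. In the same order, 77 probe sets and 1198, 1533 and 1400 genes were called in all. Without the 3 control arrays of high median the counts were 18, 0, 2 and 0, and those of all genes 6944, 475, 2892 and 48. Leaving out each array in turn gave 18 to 43, 0 to 12, 1 to 27 and 0 to 13, and 0 to 0 in the other comparisons. The counts of all genes in the first 4 then ranged over 6174 to 11061, 223 to 3611, 2371 to 7409 and 22 to 2783. Deviations of same-numbered arrays had a median correlation of 0.011 (31 correlations, from -0.298 to 0.449), against -0.005 for other arrays. These few correlations show no general pairing but cannot exclude it for some numbers. The replicate block gave 40, 5, 22 and 8, with 10903, 2583, 6381 and 1933 of all genes called.

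With the array median held fixed, 13 genes called lower in the Men1 knockout turned positive and uncalled: Col11a2 (0.0829), Col18a1 (0.0062), Col20a1 (0.0415), Col22a1 (0.13), Col2a1 (0.16), Col4a5 (0.025), Col5a1 (0.0473), Col5a3 (0.0246), Col6a3 (0.0327), Col6a5 (0.11), Col7a1 (0.0499), Col8a2 (0.18) and Lama1 (0.12). Of the other single-gene values outside the leave-one-out fits, 1703 kept their call status, 251 lost and 2 gained a call. Values that changed sign without being called in either fit count among the 1703. The array medians of the Men1 knockout do not overlap with those of RIP-Cre, so the fit with the median cannot tell it from the genotype. The causes were not tested. All genes called in these 4 comparisons numbered 10660, 2672, 6716 and 675, and with the array median held fixed 396, 42, 280 and 20.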
